A study of Mus musculus with 4 samples.

Results

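Expression of 8 genes of hepatic sugar handling was compared between *Rap1*-deficient and wild-type mouse liver. The genes are *Slc2a2*, *Pklr*, *Khk*, *Galm*, *Pcx*, *Pck1*, *Fbp1* and *G6pc*, of which 7 encode enzymes and *Slc2a2* a transporter. They were chosen by name, and every non-control probe whose accession maps to one of them was taken, which gave 8 probes, 1 for each gene, of 55681 probes on the array. RNA came from whole liver of *Rap1* -/- and wild-type mice on a background of 90% C57BL6 and 10% 129SV. The labels give an age of 30 weeks and no sex, whereas the study's text describes females and another age, and the sources used here do not say whether the mice had been fed or fasted at collection. The *Rap1* -/- allele is a whole-body deletion, made with an *EIIa*-driven cre that acts in the early embryo and was later bred out, so that liver was not the only tissue without RAP1. The labels give RNA integrity numbers from 6.6 to 8.7 as 1 range for all samples. Each of the 4 arrays carried both genotypes in different dyes, 3 arrays (replicates 1, 2 and 3) with Cy5 on the *Rap1*-deficient liver and 1 with the dyes exchanged, here the swap array, which by its label number was taken as a repeat of replicate 1. Nothing in the labels names the animals behind the replicates, so the p-values measure only the spread between these samples.

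The liver takes up glucose and fructose from portal blood through GLUT2, the product of *Slc2a2*. After a meal it burns or stores them, with liver pyruvate kinase (*Pklr*) at the exit of glycolysis and ketohexokinase (*Khk*) at the entry of fructose into metabolism. Between meals it makes glucose from lactate and amino acids, a route whose own steps are catalyzed by pyruvate carboxylase (*Pcx*), phosphoenolpyruvate carboxykinase (*Pck1*), fructose bisphosphatase (*Fbp1*) and glucose-6-phosphatase (*G6pc*). *Galm* encodes galactose mutarotase, which interconverts the ring forms of galactose and glucose. RAP1, encoded by *Terf2ip*, is a protein of the telomere-capping complex shelterin and also binds elsewhere on chromosomes at repeats of TTAGGG.

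Start-site windows of the genes that the results below turn on are given here, from RefSeq on the mouse assembly GRCm38.p6, as 300 bases on the plus strand from 250 bases before to 50 bases after the start. They were searched on both strands for TTAGGG, for CACGTG (the E-box that carbohydrate-responsive factors can bind) and for TGACG (the core of the cAMP response element), and matches are in capitals. *Pklr* has 2 annotated starts, of which the downstream one is known as the start used in liver. *Pck1* is shown as the classical gene with a cAMP response element.

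Khk, chr5:30921309-30921608: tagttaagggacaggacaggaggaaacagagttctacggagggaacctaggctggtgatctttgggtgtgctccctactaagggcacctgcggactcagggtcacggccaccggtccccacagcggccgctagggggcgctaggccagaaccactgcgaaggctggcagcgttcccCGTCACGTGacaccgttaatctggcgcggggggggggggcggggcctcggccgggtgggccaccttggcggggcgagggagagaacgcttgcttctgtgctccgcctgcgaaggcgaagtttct
Pklr upstream start, chr3:89135892-89136191: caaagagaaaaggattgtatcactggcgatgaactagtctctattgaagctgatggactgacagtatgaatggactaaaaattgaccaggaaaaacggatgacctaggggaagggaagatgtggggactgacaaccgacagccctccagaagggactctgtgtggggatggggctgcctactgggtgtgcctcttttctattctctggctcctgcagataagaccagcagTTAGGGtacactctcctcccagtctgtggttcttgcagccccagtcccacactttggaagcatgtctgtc
Pklr downstream start, chr3:89136373-89136672: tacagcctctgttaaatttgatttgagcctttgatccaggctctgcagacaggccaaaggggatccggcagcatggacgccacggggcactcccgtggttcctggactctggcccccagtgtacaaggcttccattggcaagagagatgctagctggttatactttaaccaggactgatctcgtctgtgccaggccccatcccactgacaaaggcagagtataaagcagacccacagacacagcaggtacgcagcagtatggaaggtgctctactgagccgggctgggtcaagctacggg
Pck1, chr2:173152823-173153122: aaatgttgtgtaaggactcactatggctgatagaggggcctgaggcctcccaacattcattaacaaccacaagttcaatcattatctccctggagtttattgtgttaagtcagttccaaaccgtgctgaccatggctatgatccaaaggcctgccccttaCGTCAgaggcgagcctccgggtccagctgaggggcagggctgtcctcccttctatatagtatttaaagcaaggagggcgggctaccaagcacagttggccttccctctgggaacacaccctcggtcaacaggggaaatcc

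Positions are counted from the start on which each window was built. For *Khk* and the upstream start of *Pklr*, that start lies inside the gene interval given below. The matches of both genes therefore fall within those intervals and not upstream of them. The *Khk* window held 1 CACGTG, at position -71 from its window's start, overlapped by TGACG on the minus strand. The upstream *Pklr* window held 1 TTAGGG at position -20, and the downstream window held no exact match to any of the motifs searched. The *Pck1* window held TGACG on the minus strand at position -90. Windows were found for 7 of the 8 genes, all except *Galm*. Of the others, 1 of the *Pcx* windows held CACGTG, and those of *Slc2a2*, *Fbp1* and *G6pc* held none of the motifs. Of all 32851 mouse windows of this length, 10.6% held TTAGGG, 0.0122% held 2 copies in a row, 7.15% held CACGTG and 20.8% held TGACG. A match describes the letters only. Sites that depart from these exact letters, imperfect E-boxes among them, were not searched for, so a window without a match may still hold a site.

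The deposited spot intensities were background-corrected, normalized within each array and expressed as log2 ratios of *Rap1*-deficient over wild-type liver, with the sign of the swap array turned. Its ratios were averaged with those of replicate 1, which left n = 3 pairs. Only replicate 1 is balanced for dye in this way. Replicates 2 and 3 had Cy5 on the *Rap1*-deficient liver alone, so the fold changes and calls over the 3 pairs still carry part of any dye effect. A difference was called at an adjusted p (Benjamini-Hochberg false discovery rate, FDR) under 0.15 in limma over 27513 tested probes. As a check of the labels, *Terf2ip* probe A_52_P381806 was well above background in wild-type liver on 4 of 4 arrays and in *Rap1*-deficient liver on 0 of 4, where it was at least 3.33-fold lower (limma adjusted p = 0.00859). The measured log2 ratios were -1.74, -1.92 and -1.91 for replicates 1 to 3 and -1.68 on the swap array. The bound compares wild-type channel values with the dimmest signals called well above background and is open to dye bias. A further *Terf2ip* probe, A_55_P2094079, read higher on all 4 arrays (log2 ratios 0.72 to 1.17), and the sources used here do not place it relative to the deleted part. Over the tested probes (not independent of each other), the 3 arrays of 1 dye orientation correlated at r = 0.64 to 0.85 with each other and at -0.24 to -0.29 with the swap array. The log2 ratios of all tested probes had an SD of 0.24 on that array, against 0.48 to 0.51 on the others. In 43.9% of tested probes the 3 arrays shared 1 sign and the swap array had the opposite one.

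Of the 8 sugar-handling genes, *Khk*, *Pklr* and *Galm* were called higher in *Rap1*-deficient liver over the 3 pairs and none was called lower. That is 3 of 8 called, where 34.5% of all tested probes were called, 20.8% as higher and 13.7% as lower. The share among the 8 genes is therefore near the background. *Pklr* and *Galm* had the opposite sign on the swap array (-0.16 and -0.68). The 4 gluconeogenic genes and *Slc2a2* did not pass the test. All 8 probes were well above background on 4 of 4 arrays in both genotypes, so each was tested. The median log2 fold change of the 8 genes was 0.03, equal to the 0.03 of all tested probes.

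**Figure D1:**
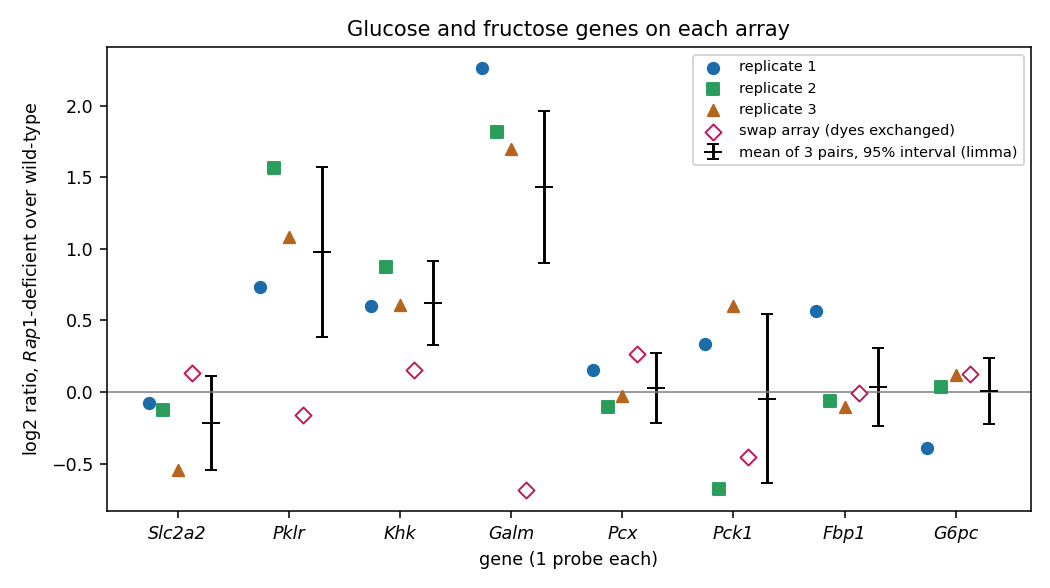
Log2 ratio of *Rap1*-deficient over wild-type liver (vertical axis) for each of the 8 genes on each array, with the mean of the 3 pairs and its 95% interval from limma in black. *Khk* lies above 0 on all 4 arrays, *Pklr* and *Galm* lie above 0 on 3 arrays and below 0 on the swap array (open diamonds, -0.16 and -0.68), and the intervals of the other 5 genes include 0.

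*Khk* encodes ketohexokinase, which phosphorylates fructose to fructose 1-phosphate. Its probe (A_52_P72434; NM_008439, chr5:30921436-30931248 in GRCm38.p6) had log2 ratios of 0.60, 0.87 and 0.61 for replicates 1 to 3 and 0.15 on the swap array. It was the only gene of the 8 with the same sign on all 4 arrays, which 21.5% of all tested probes showed. The mean over the 3 pairs was a log2 fold change of 0.62 (standard error 0.12, 95% interval 0.33 to 0.91, adjusted p = 0.0426 in limma), a 1.54-fold difference. In normalized log2 channel values, *Rap1*-deficient liver read 15.89, 16.11 and 15.85 in Cy5 and 15.85 in Cy3, and wild-type liver read 15.28, 15.24 and 15.24 in Cy3 and 15.69 in Cy5. Within each dye the genotypes did not overlap, and *Rap1*-deficient liver was above wild-type in both.

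*Pklr* encodes the pyruvate kinase of liver and red cells, which makes pyruvate in the last step of glycolysis. Its probe (A_51_P176042; NM_013631, chr3:89136122-89146815) had log2 ratios of 0.73, 1.56 and 1.08 for replicates 1 to 3 and of -0.16 on the swap array. The 2 arrays of replicate 1 thus disagreed in sign, and their mean was 0.29. Over the 3 pairs the log2 fold change was 0.98 (standard error 0.24, 95% interval 0.38 to 1.57, adjusted p = 0.0599 in limma), a 1.97-fold difference. In Cy3, *Rap1*-deficient liver had a log2 channel value of 8.92, above the wild-type values of 8.36, 8.20 and 8.20. In Cy5 it had 9.09, 9.76 and 9.29, all above the single wild-type value of 9.08, the lowest by 0.01. The genotypes therefore did not overlap within a dye, but in Cy5 the gap for replicate 1 was small.

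*Galm* had the largest ratios of the 8 genes on each of the 3 arrays of 1 dye orientation. Its probe (A_51_P136337; NM_176963, chr17:80127458-80185032) had log2 ratios of 2.26, 1.82 and 1.70 for replicates 1 to 3 and of -0.68 on the swap array, which reverses the sign. The mean of both arrays of replicate 1 was 0.79. Over the 3 pairs the log2 fold change was 1.43 (standard error 0.21, 95% interval 0.90 to 1.96, adjusted p = 0.0402 in limma), or 2.70-fold. In Cy3 the *Rap1*-deficient liver had a log2 channel value of 9.45 and wild-type liver 8.32, 8.39 and 8.33, which left a clear gap. In Cy5 the groups overlapped, with 10.58, 10.21 and 10.03 in *Rap1*-deficient and 10.13 in wild-type liver.

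**Figure D2:**
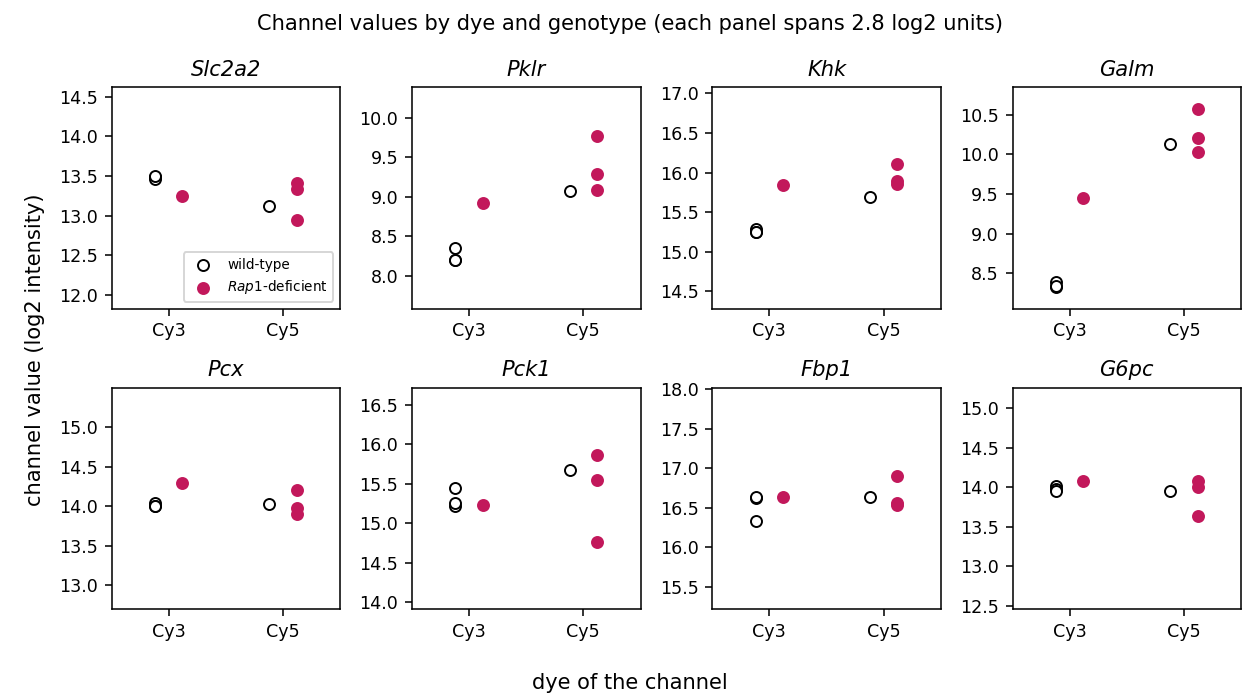
Normalized log2 channel value (vertical axis) of each gene in each dye (horizontal axis), wild-type liver as open and *Rap1*-deficient liver as filled circles, 1 circle for each array. For *Khk* and *Pklr* every filled circle lies above the open circles of the same dye, for *Galm* this holds in Cy3 and not in Cy5, and the other 5 genes overlap in Cy5.

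Comparing the genotypes within a dye leaves out the fixed difference between Cy5 and Cy3, at the price of a single array on one side of each comparison. It also sets channels of different arrays against each other, so that differences between arrays enter. *Khk* and *Pklr* were higher without overlap in both dyes, 2 of 8 genes, as were 13% of all tested probes, and none of the 8 was lower in both, as were 11.3%. For replicate 1, measured in both dyes, the difference of *Khk* was 0.19 in Cy5 and 0.56 in Cy3, that of *Pklr* was 0.01 and 0.56, and that of *Galm* was 0.45 and 1.13 on the log2 scale. All of these differences were positive. For each gene they sum to the ratios of both arrays of replicate 1, so only their split between the dyes adds to those ratios.

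A model with a dye term over the 4 arrays, which estimates genotype and dye apart, called *Khk* and *Galm*, 2 of 8, where it called 6.7% of all tested probes. Its genotype effect was 0.42 for *Khk* (standard error 0.09, adjusted p = 0.109 in limma), 0.62 for *Galm* (standard error 0.13, adjusted p = 0.0999) and 0.48 for *Pklr* (standard error 0.16, adjusted p = 0.22). The dye effect, the part by which Cy5 read higher in either genotype, was called for the same 3 genes and for 27.6% of all tested probes. It was 1.30 for *Galm* (adjusted p = 0.00676), 0.64 for *Pklr* (0.0637) and 0.27 for *Khk* (0.115). Thus the dye effect of *Galm* and *Pklr* was larger than their genotype effect and that of *Khk* was smaller. The log2 fold changes over the 3 pairs (*Galm* 1.43, *Pklr* 0.98, *Khk* 0.62) were each above the genotype effect of this model. The dye effect was larger for 6 of 8 genes and for 62% of tested probes. This model takes the 4 arrays as separate samples, so replicate 1 enters it by both of its arrays, although the swap array was taken as its repeat. The spread of the dye-swapped orientation was not measured, since 1 array carried it. The standard errors of this model therefore take their spread from replicates 1 to 3 alone.

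**Figure D3:**
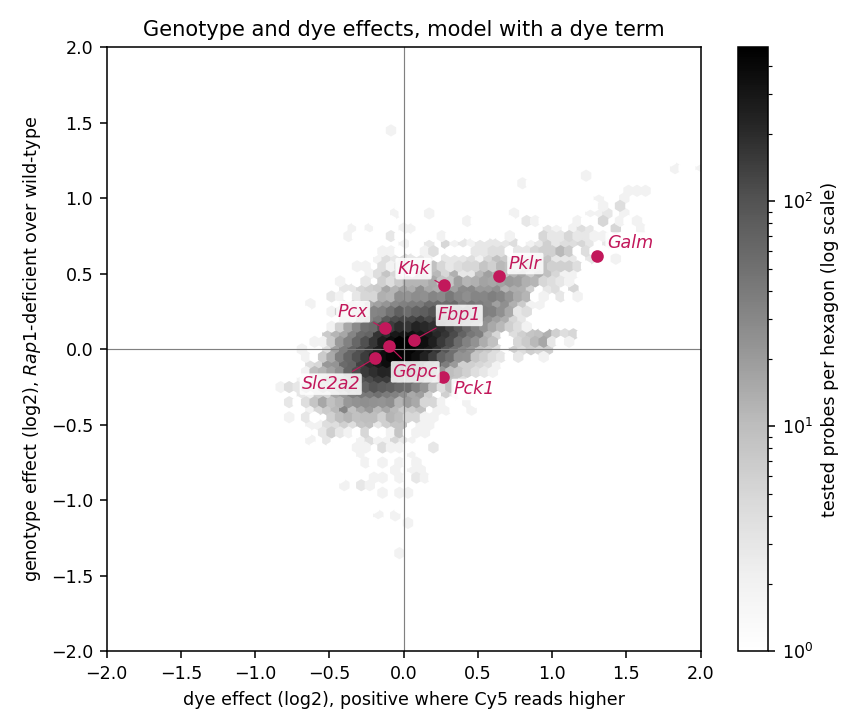
Genotype effect (vertical axis, log2) against dye effect (horizontal axis, log2) from the model with a dye term, the tested probes as grey hexagons shaded by their number and the 8 genes as labelled points. *Galm* lies far to the right at a dye effect of 1.30, *Khk* has a genotype effect of 0.42 above its dye effect of 0.27, and 27 probes lie outside the axes.

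The 3 calls depended on how the swap array and replicate 2 were used. Without replicate 2, which left 2 pairs, 0 of the 8 genes and 7 of all tested probes were called, and the log2 fold change of *Khk* was 0.49 (adjusted p = 0.281 in limma), that of *Pklr* 0.69 (0.317) and that of *Galm* 1.24 (0.267). With the swap array counted as a separate replicate, 0 genes and 83 probes were called, at 0.56, 0.81 and 1.27 for the 3 genes (adjusted p = 0.238 for each). *Pklr* also lost its call without replicate 3 (log2 fold change 0.93, adjusted p = 0.167). Adjusted p ranged over all settings from 0.00451 to 0.281 for *Khk*, from 0.00607 to 0.317 for *Pklr* and from 0.000863 to 0.267 for *Galm*, and all 3 genes had a positive log2 fold change in each of them.

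**Figure D4:**
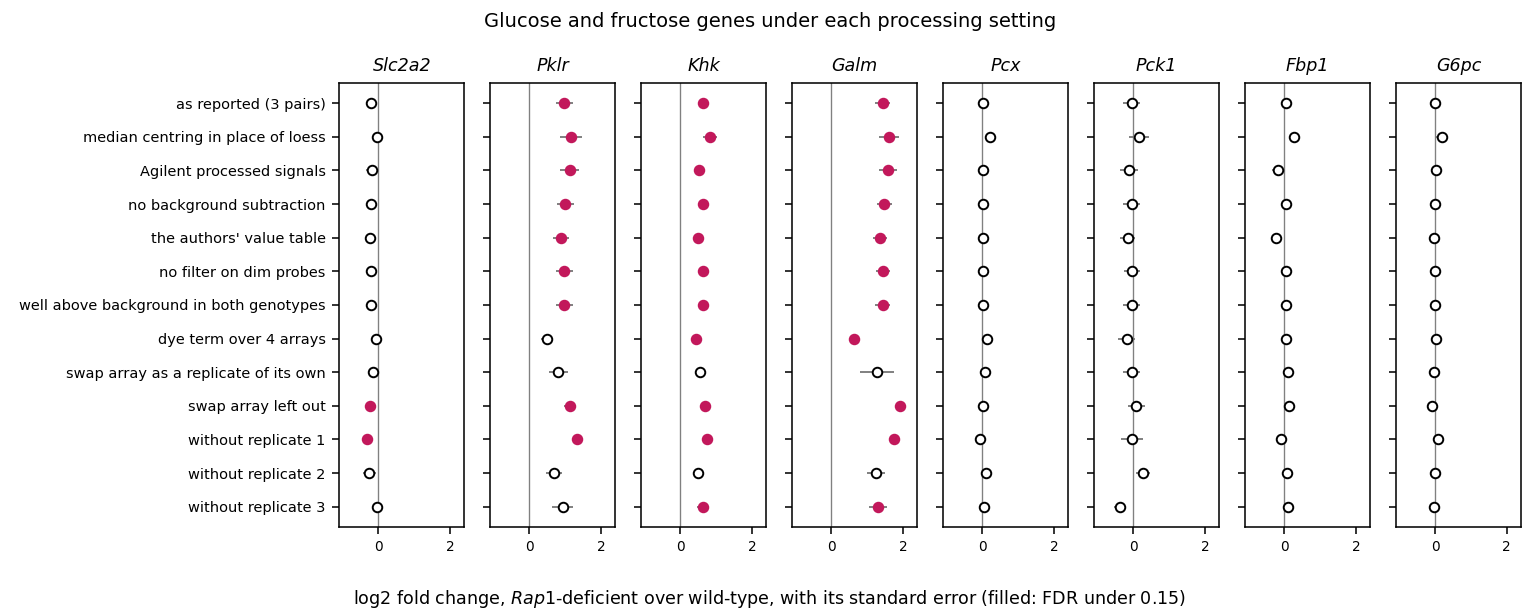
Log2 fold change with its standard error (horizontal axes) of each gene under each processing setting (rows), filled where the FDR was under 0.15. *Khk*, *Pklr* and *Galm* stay right of 0 in every row and are open without replicate 2 and with the swap array counted separately, whereas *Pcx*, *Pck1*, *Fbp1* and *G6pc* lie on both sides of 0.

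*Slc2a2* encodes GLUT2, the glucose and fructose transporter of the hepatocyte. Its probe (A_51_P185693; NM_031197, chr3:28697903-28728361) had log2 ratios of -0.08, -0.12 and -0.54 for replicates 1 to 3 and of 0.13 on the swap array. The 3 arrays of 1 orientation were below 0 and the swap array above it. The log2 fold change was -0.21 (95% interval -0.54 to 0.11, adjusted p = 0.299 in limma). It passed the threshold without the swap array (-0.25, adjusted p = 0.147) and without replicate 1 (-0.33, adjusted p = 0.134), and adjusted p reached 0.854 among the other settings. *Slc2a2*, *Pklr* and *Galm*, 3 of 8, had the opposite sign on the swap array, beside the 43.9% of all tested probes given above.

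Of the gluconeogenic genes, *Pcx* encodes pyruvate carboxylase, which makes oxaloacetate from pyruvate in mitochondria. Its probe (A_55_P2008599; NM_001162946, chr19:4510472-4621752) had log2 ratios of 0.16, -0.10 and -0.03 for replicates 1 to 3 and 0.27 on the swap array. The arrays lay on both sides of 0, with a log2 fold change of 0.03 (95% interval -0.22 to 0.27, adjusted p = 0.862 in limma). *Pck1* encodes the cytosolic phosphoenolpyruvate carboxykinase. Its probe (A_66_P121110; NM_011044, chr2:173153073-173159274) had ratios of 0.33, -0.68 and 0.60 for replicates 1 to 3 and -0.45 on the swap array.

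*Pck1* was thus the most scattered of the 4, and both arrays of replicate 1 disagreed in sign. Its log2 fold change was -0.05 (95% interval -0.64 to 0.55, adjusted p = 0.907 in limma). *Fbp1* encodes fructose 1,6-bisphosphatase. Its probe (A_51_P474701; NM_019395, chr13:62864753-62888298) had ratios of 0.57, -0.06 and -0.11 for replicates 1 to 3 and -0.01 on the swap array, so that only replicate 1 stood away from 0. The log2 fold change was 0.04 (95% interval -0.23 to 0.31, adjusted p = 0.83). *G6pc* encodes the catalytic subunit of glucose-6-phosphatase, which releases free glucose. Its probe (A_51_P462385; NM_008061, chr11:101367716-101377903) had ratios of -0.39, 0.04 and 0.12 for replicates 1 to 3 and 0.13 on the swap array. Here replicate 1 in Cy5 was the single array below 0, and the log2 fold change was 0.01 (95% interval -0.22 to 0.24, adjusted p = 0.96). Among the 4 genes, the interval was narrowest for *G6pc* and widest for *Pck1*. A missed threshold does not show equal expression.

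The channel values of the same 4 genes overlapped between genotypes in Cy5. The log2 channel values of *Pck1* in *Rap1*-deficient liver ran from 14.77 to 15.86 over the 4 arrays, and those in wild-type liver from 15.21 to 15.68. For *G6pc* they ran from 13.63 to 14.08 and from 13.95 to 14.02, and for *Fbp1* from 16.53 to 16.90 and from 16.33 to 16.64. *Pcx* ran from 13.90 to 14.29 and from 14.00 to 14.04. The *Rap1*-deficient livers thus covered a wider range than the wild-type livers in each of the 4.

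This held for all 8 genes among replicates 1 to 3. The log2 channel values of the 3 *Rap1*-deficient livers in Cy5 had an SD from 0.14 (*Khk*) to 0.56 (*Pck1*), and those of the 3 wild-type livers in Cy3 from 0.019 (*Slc2a2*) to 0.17 (*Fbp1*). Over all tested probes, 80.5% had the larger SD in *Rap1*-deficient liver, with a median SD of 0.14 against 0.062. The deposited median intensities on the log2 scale correlated at r = 0.998 between the wild-type Cy3 channels and at r = 0.982 to 0.992 between the *Rap1*-deficient Cy5 channels. The dye and the genotype cannot be told apart in this comparison. The labels do not say whether the wild-type channels held separate mice or RNA shared between arrays, and if it was shared, the p-values leave out the spread between wild-type livers.

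*Galm* had the smallest p of the 8 genes, at rank 454 among all tested probes. The named probes nearest to its 4 log2 ratios by Euclidean distance were those of *Fads1* (a fatty acid desaturase, distance 0.20), *Cyp2d22* (a cytochrome P450, 0.22), *Gtf2h3* (a subunit of a general transcription factor, 0.28), *Ugt1a10* (a glucuronosyltransferase whose gene shares exons with its neighbours, 0.29) and *1700022A21Rik* (0.29). By this choice, each had a negative ratio on the swap array, from -0.65 to -0.42, and ratios from 1.54 to 2.34 on the other 3.

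The other genes of these routes were read from 8 lists with 129 genes, of which 120 were tested. Of these, 29 were higher, 8 were lower and 83 were not called, or 30.8% called against 34.1% of all 13167 named genes tested. Their median log2 fold change was 0.09, against 0.005 for all named genes. Of the 37 called, 22 had the same sign on the swap array (59.5%, against 39.5% of all called genes), and 7 of the 120 were called with a dye term. None of the 34 genes that the naming rule takes from the lists, zonation lists included, changed sign under another scaling. The rule takes called genes of smallest p in the same data, which favours a stable sign, so this is no separate support. The list medians of glycogen, pyruvate dehydrogenase, transporter and pericentral genes did change sign.

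The fructose list held 11 tested genes, 4 higher and 1 lower, with a median of 0.15. *Akr1b3*, the aldose reductase that makes sorbitol from glucose, rose most, with log2 ratios of 1.83, 2.14 and 2.47 for replicates 1 to 3 and 1.93 on the swap array (log2 fold change 2.17, adjusted p = 0.0154 in limma). *Tkfc*, which phosphorylates the glyceraldehyde released from fructose (0.55, adjusted p = 0.0565 in limma, swap array 0.21), and *Glyctk*, a glycerate kinase (0.47, adjusted p = 0.0445, swap array 0.02), also rose. The other tested probe of *Glyctk* gave a larger value (1.24, adjusted p = 0.0358). *Tkfc* and *Glyctk* were thus, like *Khk*, above 0 on all 4 arrays, and *Akr1b3* and *Tkfc* were higher than wild-type without overlap within each dye. The gene called lower was *Ugp2*, which makes UDP-glucose (-0.25, adjusted p = 0.142 in limma, swap array 0.37). With a dye term its genotype effect was -0.014 (adjusted p = 0.941 in limma).

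Glycolysis had 24 tested genes, 5 higher, 0 lower and 19 not called, with a median of 0.23. *Eno1* (enolase, 0.43), *Gpi1* (glucose-6-phosphate isomerase, 0.39) and *Gapdh* (glyceraldehyde-3-phosphate dehydrogenase, 0.35) rose and did not overlap within either dye, but *Eno1* and *Gapdh* were at -0.07 and -0.04 on the swap array, and *Gpi1* at 0.22. The other 6 tested probes of *Gapdh* ran from 0.26 to 1.16, and all passed the test. *Pgk1*, a phosphoglycerate kinase, rose by 0.26 with 0.088 on the swap array. No glycolysis gene was called with a dye term.

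Among 16 tested partners of gluconeogenesis, 3 rose and 1 fell, with a median of 0.09, and all 4 had the same sign on the swap array. *Slc25a10*, the mitochondrial dicarboxylate carrier, rose by 1.03, *Gpt2*, an alanine aminotransferase, by 0.55, and *Car5a*, the mitochondrial carbonic anhydrase that supplies pyruvate carboxylase with bicarbonate, by 0.51, with 0.043, 0.30 and 0.071 on the swap array. *Got1*, the cytosolic aspartate aminotransferase, fell, with ratios of -0.98, -0.92 and -0.71 for replicates 1 to 3 and -0.38 on the swap array (adjusted p = 0.0402 in limma). *Got1* was lower without overlap in both dyes, and *Gpt2* and *Car5a* higher.

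**Figure D5:**
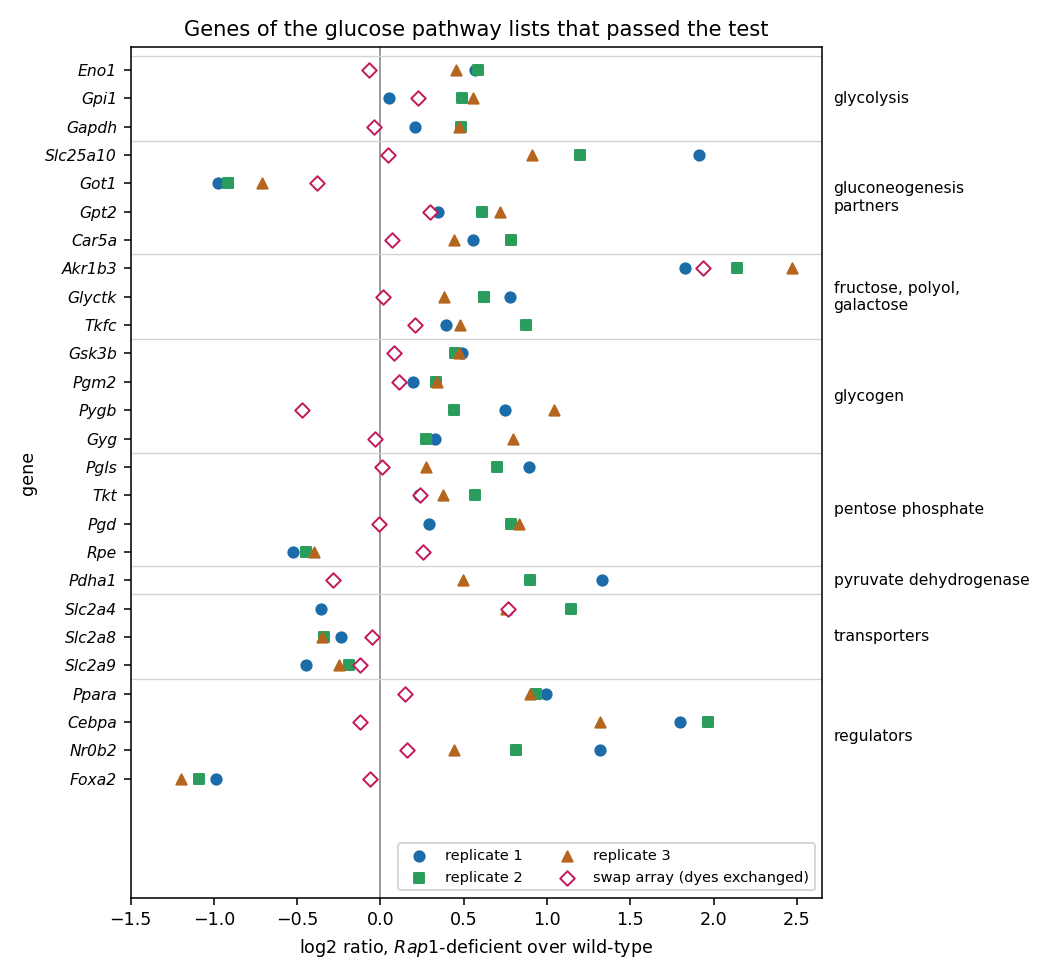
Log2 ratio of *Rap1*-deficient over wild-type liver (horizontal axis) on each array for the called genes of the glucose lists that are named by rule. *Akr1b3* lies between 1.83 and 2.47 and *Got1* between -0.98 and -0.38 on all 4 arrays, whereas many of the other genes lie near or across 0 on the swap array (open diamonds).

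Of 20 tested glycogen genes 5 rose and 0 fell (median 0.04), and 2 of the 5 had the same sign on the swap array. The 5 were the kinase *Gsk3b* (0.40, swap array 0.081), the phosphoglucomutase *Pgm2* (0.28, swap array 0.11), the phosphorylase *Pygb* (0.54, swap array -0.47), glycogenin (*Gyg*, 0.41, swap array -0.034) and *Ppp1r3b*, a glycogen-targeting subunit of protein phosphatase (0.54, swap array -0.44). Of 8 pentose phosphate genes 3 rose (*Pgls* 0.48, *Tkt* 0.39 and *Pgd* 0.58, steps of the oxidative and sugar-exchange branches, with 0.012, 0.23 and -0.011 on the swap array) and *Rpe*, an epimerase, fell by 0.33 with 0.26 on the swap array. Of 10 tested genes of the pyruvate dehydrogenase complex 1 rose, *Pdha1* (0.64, swap array -0.28). Of 8 tested transporters *Slc2a4*, the insulin-responsive glucose transporter, rose (0.70), with -0.36 on replicate 1 and 0.77 on its swap array. *Slc2a8* and *Slc2a9* fell by 0.28 and 0.24, with -0.049 and -0.12 on the swap array. No glycogen, pentose phosphate, pyruvate dehydrogenase or transporter gene was called with a dye term.

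Of 23 tested regulators 7 were higher and 3 lower, with a median of 0.12. *Ppara*, the nuclear receptor of fatty acid oxidation, rose by 0.80 (adjusted p = 0.0402 in limma) with 0.15 on the swap array, and was higher without overlap in both dyes. Of its other tested probes, 1 rose too (0.68, adjusted p = 0.0402) and 1 did not pass (-0.21, adjusted p = 0.268), so that its probes did not share 1 sign, nor did those of *Gsk3b* (0.69 and -0.14 beside 0.40). *Cebpa*, a factor of hepatocyte differentiation, rose by 1.37 with -0.13 on the swap array, and *Nr0b2*, a corepressor induced by bile acids, rose by 0.66 with 0.16. *Foxa2*, a factor that opens liver chromatin, fell by 0.94 with -0.06 on the swap array and was lower without overlap in both dyes. *Irs2*, an adaptor of the insulin receptor, and *Crtc2*, a coactivator of CREB, fell by 0.30 and 0.26, with -0.14 and 0.23 on the swap array. The remaining called regulators were higher over the 3 pairs, *Mlx* by 0.42, *Stk11* by 0.68, *Srebf1* by 0.96 and *Insr*, the insulin receptor, by 0.28. On the swap array *Stk11*, *Srebf1* and *Insr* were lower in *Rap1*-deficient than in wild-type liver. Their log2 channel values there were 9.94 against 10.36, 10.24 against 10.33 and 9.14 against 9.21. *Mlx* was higher there, at 9.57 against 9.53. *Mlx* and *Insr* were higher without overlap in both dyes, and *Stk11* and *Srebf1* were not.

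Gluconeogenesis is known as a periportal task and glycolysis as a pericentral one, so genes of both zones were read too. Of 10 periportal genes 2 rose, the arginase *Arg1* (1.18) and the aldehyde dehydrogenase *Aldh1b1* (0.79), both with negative ratios on the swap array (-0.38 and -0.08). Of 10 pericentral genes 2 rose and 3 fell. The ammonium transporter *Rhbg* (0.80, swap array 0.49) and glutamine synthetase (*Glul*, 0.68) rose. The Wnt target *Axin2* (-0.54) and *Cyp7a1* (-0.88), the rate-limiting enzyme of bile acid synthesis, were lower, as was *Lgr5*, a gene of the Wnt pathway (-0.44, swap array 0.024). *Axin2* was below 0 on all 4 arrays, from -0.67 to -0.42, and so was *Cyp7a1*, from -2.19 to -0.23, while *Glul* had -0.11 on the swap array. Of these 5 pericentral genes, 3 had the same sign on the swap array as in the test, and the 5 did not share 1 direction.

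In whole liver a smaller number of cells of a type and less RNA per cell cannot be told apart. All 10 hepatocyte markers, *Alb* and *Apoa1* among them, were well above background on all 4 arrays in both genotypes. Their summed level differed by 0.56, 0.57 and 0.48 (log2) for replicates 1 to 3 and by -0.51 on the swap array. It ranged from 19.33 to 19.88 in *Rap1*-deficient and from 19.31 to 19.85 in wild-type liver. Of the 10 markers, 3 were called higher, where 2376 of all 13167 named genes tested were called higher and 2120 lower. The hepatocyte sum moved with the dye in the way of *Galm* and *Pklr*, and its part in those results was not tested. The 6 tested Kupffer cell and macrophage markers ranged in sum from 14.46 to 16.30 and from 15.10 to 15.20, differing by -0.74, 0.11, 1.19 and -0.21 for replicates 1 to 3 and the swap array, with 0 higher and 1 lower.

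Markers of the other cell types were called as higher in 2 of 6 (endothelial), 2 of 4 (lymphocyte), 1 of 3 (cholangiocyte) and 0 of 7 (stellate), 0 of 2 (erythroid), 0 of 2 (adipocyte) and 0 of 2 (exocrine pancreas), and none of these was lower. Over all named genes tested, 34.1% were called in either direction, and with so few markers a list these counts do not show a departure from that share. The lymphocyte sum differed by 0.45, 0.60 and 1.07 for replicates 1 to 3 and by -0.11 on the swap array, and the endothelial sum by 0.38, 0.43, 0.32 and -0.15. The adipocyte sum, over *Fabp4* and *Cfd*, differed by 0.83, -0.21, -0.10 and 1.64, and *Lep* was well above background on no array, while *Adipoq* was so on 3 of 4 arrays in *Rap1*-deficient and on 0 of 4 in wild-type liver. Among the 5 pancreatic markers, all 4 arrays had *Cel* well above background in both genotypes, *Cpa1* was so on 0 in *Rap1*-deficient and 4 in wild-type liver, *Cpb1* on 1 and 3, and *Pnlip* and *Cela2a* on none. The part of these cell types in the results on the 8 genes was not tested.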

How the data were processed

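Liver RNA of *Rap1*-deficient and wild-type mice had been hybridized to 4 Agilent 2-colour arrays, all on 1 slide and of 1 scan. Per the file headers, the deposited scans come from Feature Extraction 10.7.3.1 and hold spot intensities, with median signals, local backgrounds and processed intensities of both dyes, and a log10 ratio of Cy5 to Cy3, as the authors deposited it. The authors' value table holds log2 ratios, credited to limma in the submitters' processing notes, with column medians of -0.01, -0.02 and -0.02 for replicates 1 to 3 and 0.000826 for the dye swap. Set against the scans, its dye-swapped column was already turned; the sources used here do not give its background correction.

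Median intensities were corrected by normexp (offset 50) and loess-normalized within each array (control spots weighted 0) with limma 3.58.1 in R 4.3.3. Of 62976 spots, 59305 were not controls. Outlier-flagged spots were left out, which removed 5 probes, and spots of a probe were averaged. The test took probes with a share of 0.5 or more of spots flagged well above background on all arrays for 1 genotype or both (27513 of 55681, 49.4%). In Cy3 50.1% to 55.1% and in Cy5 52.1% to 56.4% of spots were well above background, 0 were saturated, and precision is limited by the number of arrays. Channel values were taken after between-array quantile scaling of mean intensities. The dye swap was averaged with replicate 1 by its number in the labels, and the intercept over 3 pairs was tested with lmFit and eBayes, adjusted by Benjamini-Hochberg. The fit was tested on simulated data with independent arrays and no dye effect, so that test does not bear on the dye effect of these data.

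Names came from matching probe accessions to RefSeq on GRCm38.p6 (26056 probes). The members and lists were chosen with earlier results of these data known. In lists, a gene is its tested probe of highest mean intensity. The results of 2 list genes are not reported here by name, though they are in the counts. The text names all 8 members, up to 4 called genes of smallest p in each list, the *Terf2ip* probes, and the 5 named probes nearest to the member of smallest p. *Alb*, *Apoa1*, *Fabp4*, *Cfd*, *Lep*, *Adipoq* and the pancreatic genes are markers named as examples. *Pgk1*, *Ugp2*, *Ppp1r3b*, *Irs2*, *Crtc2*, *Mlx*, *Stk11*, *Srebf1*, *Insr* and *Lgr5* were added after their values were seen. Another normalization, background correction, probe filter, dye model, use of the dye swap, threshold and set of replicates were tried.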

Additional observations from a re-analysis of the deposited data

Results flagged for a closer look

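*Slc2a2*, *Pklr* and *Galm* had 1 sign on the arrays of replicates 1, 2 and 3 and the opposite sign on the swap array, at log2 ratios of 0.13, -0.16 and -0.68 there. A sign change as such was not tested, and 43.9% of all tested probes showed the same pattern. The dye effect of the model with a dye term, which bears on the difference between the orientations, was called for *Galm* (1.30, adjusted p = 0.00676 in limma) and *Pklr* (0.64, adjusted p = 0.0637) and not for *Slc2a2* (-0.19, adjusted p = 0.323).

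*Fbp1* had 1 array far from the others: replicate 1 at a log2 ratio of 0.57, while the other 3 arrays lay between -0.11 and -0.01, a gap of 0.855 of the whole range. How often such a gap arises by chance was not tested, and 8 genes were looked at. A chance rate for independent, alike samples cannot be used here. The swap array had the other dye orientation and a smaller spread, and was taken as a repeat of replicate 1.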

How the results depend on the processing

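*Khk*, *Pklr* and *Galm* had a positive log2 fold change under every setting, and each kept its call under median centring, processed intensities, no background subtraction, the value table and both probe filters. With a dye term over the 4 arrays *Pklr* gave 0.48, 1844 probes were called in all, and 7 list genes (5 higher, 2 lower). With the swap array counted as a separate replicate, 83 probes, 0 of the 8 genes and 1 list gene (1 higher, 0 lower) were called, with *Pklr* at 0.81, *Khk* at 0.56, *Galm* at 1.27 and *G6pc* at -0.027. Without the swap array 14496 probes and 59 list genes (21 lower) were called, with *Slc2a2* at -0.25, *Pck1* at 0.085 and *G6pc* at -0.077. At an FDR under 0.05, 2495 probes and 13 list genes (11 higher, 2 lower) were called, and *Pklr* (0.98, adjusted p = 0.0599 in limma) was not. The remaining sign changes were *Pck1* at 0.16 under median centring, *Fbp1* at -0.17 with processed intensities and -0.22 in the value table, and *G6pc* at -0.024 in the value table. List genes called lower were 2 under median centring and 15 in the value table. Median centring moved the median of all probes to 0.17. The share of higher calls was 60.3%, but 87.7% under median centring, 49.3% with processed intensities, 45.3% in the value table, 70.3% at the stricter FDR, 32.5% with the swap array as a separate replicate and 14.3% of the 7 calls without replicate 2.

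Leaving out 1 replicate in turn gave 7 to 12596 called probes (7 without replicate 2, 2735 without replicate 3), 0 to 4 of the 8 genes, and 0 to 56 list genes (0 to 36 higher, 0 to 20 lower; 0 without replicate 2, 16 without replicate 3, 56 without replicate 1). The log2 fold changes ranged from -0.33 to -0.048 for *Slc2a2*, 0.69 to 1.32 for *Pklr*, 0.49 to 0.74 for *Khk*, 1.24 to 1.76 for *Galm*, -0.065 to 0.094 for *Pcx*, -0.37 to 0.27 for *Pck1*, -0.084 to 0.11 for *Fbp1* and -0.048 to 0.077 for *G6pc*. The cause of these changes was not tested, beyond the smaller number of samples. The test itself pairs the genotypes within each array. By replicate number across arrays, no paired analysis was possible because the groups of arrays by dye orientation share only 1 replicate number, and no slide or scan block was run, since all arrays were on 1 slide and of 1 scan. All 8 genes passed the filter on signal over background, but *Pklr* and *Galm* were by far the dimmest. Their wild-type median signals in Cy3 were 212 to 248 and 220.5 to 251, over local backgrounds of 45 to 58. The other genes had 7676 or more in every channel. The part of low signal in the ratios of *Pklr* and *Galm* was not tested. The single swap array was a limit for all 8.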
